A study of Mus musculus with 18 samples.

Results

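The matricellular proteins and the CCN family were followed as 10 genes, Ccn1, Ccn2, Ccn3, Ccn4, Ccn5, Thbs1, Thbs2, Postn, Tnc and Sparc, in mouse embryonic fibroblasts (MEFs) given uracil. They were chosen by gene symbol, as the rows of the count table whose Ensembl identifier maps to each name. The rule uses no measured value, but the set was proposed with earlier results of these data known. Each symbol matched 1 of the 55487 gene identifiers, and all 10 genes were among the 13865 that passed the filter on low counts. Cultures were kept for 24 h without added uracil (0 µM, labelled control and called vehicle here) or with 10 µM or 30 µM of it. Total RNA was then sequenced after ribosomal RNA depletion, in 6 libraries per dose and 18 in all. The libraries of each dose carry the numbers 1 to 6, so that every number holds 1 library of each dose. MEFs are explanted from mouse embryos, and such cultures can hold several mesenchymal cell types. Uracil is a base of RNA. All 18 cultures were in serum-containing medium, and the labels name no genetic change, mouse strain, embryo or passage for any of them. The study's methods call the 6 samples of a dose biological replicates, but the labels do not say what a number stands for. P-values of the dose tests without number thus measure the spread between these samples.

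Matricellular proteins are secreted into the extracellular matrix without forming its load-bearing fibres, and act by binding receptors, growth factors, proteases and other matrix proteins. The CCN proteins are cysteine-rich members of this class, and Ccn1 and Ccn2 are known as targets of YAP, TEAD and serum response factor that respond within a short time to serum and to mechanical load. Thrombospondins, periostin, tenascin C and SPARC are made by fibroblasts during development and wound repair, and link collagen assembly, TGF-beta activity and adhesion.

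Upstream sequence is shown for 4 of the genes, to set beside the counts the letters that lie before the start of genes that behaved differently: Ccn1, highest in number 2, Thbs2 and Postn, low in numbers 5 and 6, and Sparc, which varied least between numbers. The RefSeq promoter table (GRCm38.p6, a build other than that of the gene positions given later) matched 5 of the 10 genes with 7 entries, for Ccn1, Thbs2, Postn, Tnc and Sparc. Each run below is the 250 bases before an annotated start, 5′ to 3′ on the strand of the gene, at chr3:145649986-145650235 (minus) for Ccn1, chr17:14694263-14694512 (minus) for Thbs2, chr3:54360857-54361106 (plus) for the downstream of both Postn entries, and chr11:55420081-55420330 (minus) for Sparc. Capitals mark matches, on either strand, to the letters TATAAA of a TATA box, the core bound by TEAD factors (GGAATG), an AP-1 site (TGANTCA), the CArG box of serum response factor, or a GC box (GGGCGG).
Ccn1: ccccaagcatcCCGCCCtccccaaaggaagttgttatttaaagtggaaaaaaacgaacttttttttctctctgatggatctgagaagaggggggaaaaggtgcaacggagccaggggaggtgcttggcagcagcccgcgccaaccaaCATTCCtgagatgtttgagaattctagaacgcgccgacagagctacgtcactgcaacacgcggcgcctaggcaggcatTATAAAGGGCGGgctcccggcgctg
Thbs2: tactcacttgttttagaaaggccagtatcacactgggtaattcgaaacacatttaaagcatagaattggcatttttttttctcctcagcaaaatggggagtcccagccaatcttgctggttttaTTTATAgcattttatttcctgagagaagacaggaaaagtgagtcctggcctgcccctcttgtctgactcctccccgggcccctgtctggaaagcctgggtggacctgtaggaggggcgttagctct
Postn: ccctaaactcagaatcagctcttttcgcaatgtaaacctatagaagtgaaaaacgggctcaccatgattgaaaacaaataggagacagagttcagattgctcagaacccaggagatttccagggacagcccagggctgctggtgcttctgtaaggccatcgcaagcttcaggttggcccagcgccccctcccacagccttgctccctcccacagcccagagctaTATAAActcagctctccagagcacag
Sparc: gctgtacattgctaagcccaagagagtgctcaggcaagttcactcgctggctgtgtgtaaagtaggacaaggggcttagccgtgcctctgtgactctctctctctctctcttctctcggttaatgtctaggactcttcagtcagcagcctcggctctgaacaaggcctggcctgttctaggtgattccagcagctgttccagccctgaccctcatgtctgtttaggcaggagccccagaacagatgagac
Ccn1 held a TATA match 25 bases before the start, a TEAD match at 103 bases and GC boxes at 239 and 19 bases, the last directly after the TATA match with no shared base. Postn held a TATA match at 26 bases and Thbs2 at 126 bases, and neither printed run held another match. The other Postn entry held none of the motifs. Sparc held none of the motifs in this window. Of all 32851 promoters of 27025 genes in the table, 12.4% held the TATA letters within 250 bases, 12.6% the TEAD letters, 6.75% the AP-1 letters, 1.47% a CArG box and 32.7% a GC box. Tnc, not printed, held a TATA match and a GC box in both of its entries. A match describes letters and not a bound site.

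Between 3963932 and 20775298 read pairs per library were counted in genes, and the lowest count of any of the 10 genes in any library was 362. Vehicle number 1 (54.2%), 30 µM number 6 (37.9%) and 10 µM number 6 (5.24%) had the most unaligned pairs, against 1.72% to 3.59% in the other 15 libraries. The last of them thus lay much nearer to those 15 than the former ones did. The study's methods left out a sample of the vehicle group and another of the higher dose for human RNA, and the labels do not say which. All 18 libraries were therefore kept, and results are also given for the 15 others. Those 15 lack number 1 among the vehicle libraries and number 6 at both uracil doses, so their doses are not balanced over the numbers. Of 10 fibroblast markers, all were detected in every library, led by Col1a1, Col1a2, Vim and Col3a1. Lum was the lowest of them, at 0.252 to 12.4 CPM (a counts-per-million value, with library totals scaled by TMM). Pecam1, Cdh5 and Tie1 of the endothelial list, Ptprc and Adgre1 of the blood list and 4 of 4 skeletal muscle genes did not exceed 0.369 CPM in any library. Lum also lay under that level in vehicle number 6. The other genes of the endothelial and blood lists were detected in every library, at 4.86 to 8.32 CPM for Kdr, 1.47 to 3.61 CPM for Tek and up to 2.18 CPM for Csf1r, Cd68 and Cd14. In RNA from whole cultures, fewer cells of a type and less RNA per cell cannot be told apart.

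Per kilobase of exon, the 10 genes differed widely in level. Thbs1 was the highest, at 1433 ± 229 CPM per kb (SD, n = 18 libraries), at the 99.9th percentile of 13784 genes. Sparc followed at 857 ± 70.6 CPM per kb, and the ranges of these genes, 1040.4 to 1779.5 and 667 to 917 CPM per kb, did not overlap with each other or with any lower gene. Next came Ccn1 (227 ± 60.1 CPM per kb), Tnc (168 ± 24.3), Ccn2 (156 ± 47.6), Ccn5 (105 ± 50.4) and Ccn4 (77.4 ± 7.74), and the range of each overlapped that of its neighbour. Ccn3 (41.6 ± 13.6 CPM per kb), Thbs2 (24.3 ± 5.70) and Postn (17.4 ± 6.22) were the lowest, with ranges that overlapped in the same way, while Ccn4 and Ccn3 did not overlap. With the longest transcript as length in place of all exons, Sparc moved to 1437 CPM per kb, beside Thbs1 at 1485, and Postn to 29.2 CPM per kb, beside Thbs2 at 29.5.

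The first comparison asked whether uracil changed the RNA of these genes. It did not do so detectably, and the ranges of all 3 doses overlapped in each of the 10 genes. In 9 of them the range of each dose was wider than any difference between dose means. Sparc was the exception, since its 30 µM libraries lay close together at 3826 ± 55.4 CPM (SD, n = 6) against 3519 ± 412 CPM with vehicle. The plot of CPM by replicate number shows all 180 values.

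**Figure D1:**
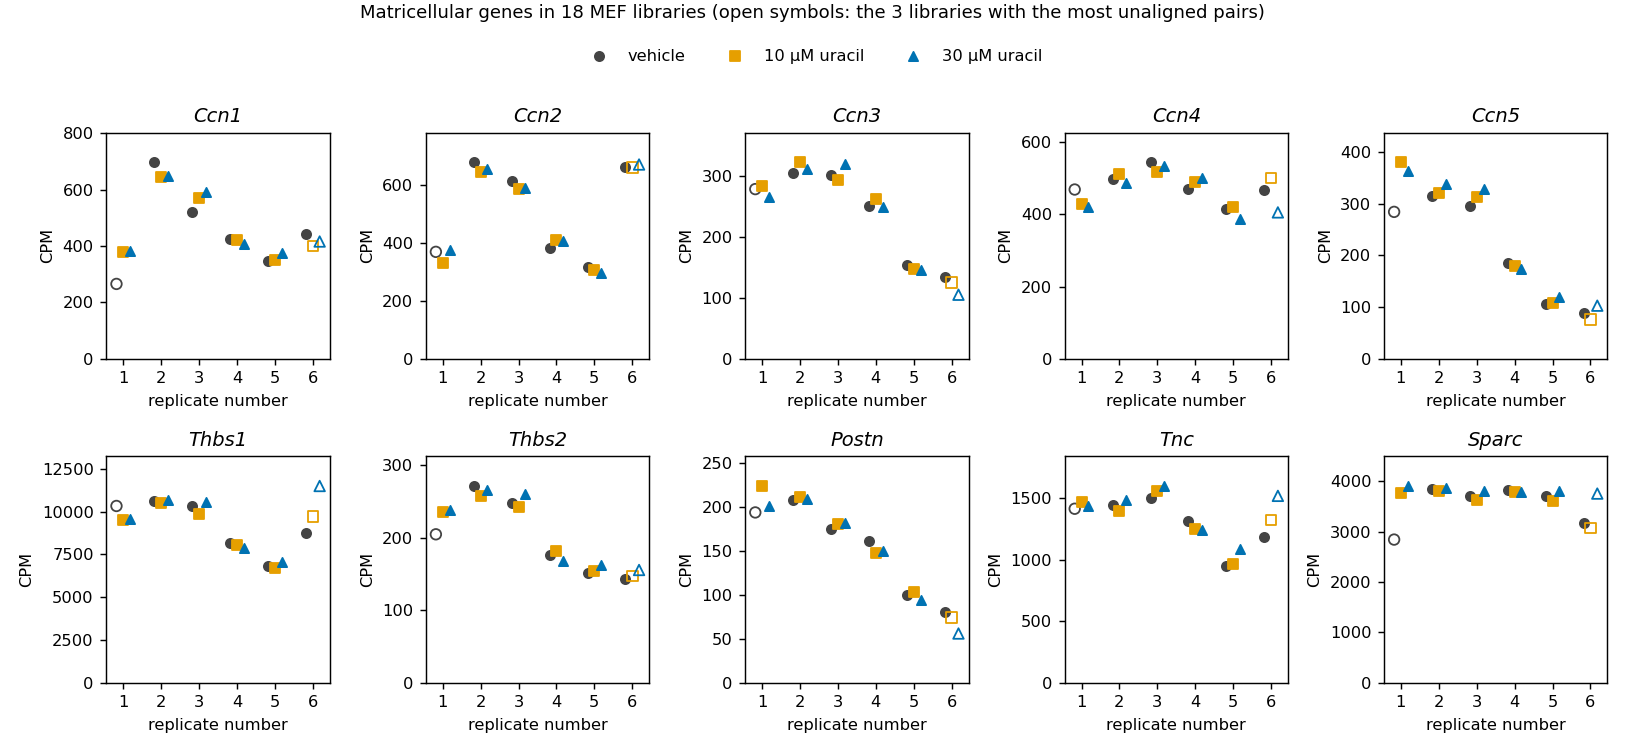
CPM of each of the 10 genes (y axis, from 0) against replicate number (x axis) in 18 MEF libraries, with vehicle as grey circles, 10 µM uracil as orange squares and 30 µM uracil as blue triangles, and open symbols for the 3 libraries with the most unaligned pairs. Symbols of a number lie close together while numbers lie apart, as in Ccn5, which had 364 CPM in 30 µM number 1 and 120.1 CPM in 30 µM number 5.

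Ccn1 (Cyr61), an immediate-early matrix protein that binds integrins, lies at chr3:145352720-145355738 on GRCm39 with 5 exons. Its lowest, median and highest levels were 266, 435 and 698 CPM with vehicle, 349, 412 and 647 CPM at 10 µM, and 375, 412 and 648 CPM at 30 µM. Number 2 was the highest library at every dose, and the doses overlapped over nearly their whole ranges. Ccn2 (connective tissue growth factor, chr10:24471333-24474900, 3 exons) had 317, 498 and 679.8 CPM with vehicle, 307, 499 and 660.2 CPM at 10 µM, and 295, 498 and 671 CPM at 30 µM. Its medians hardly differed, and number 5 was the lowest at each dose.

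Ccn3 (Nov, chr15:54609012-54620154, 5 exons), often described as a counterweight to Ccn2, had 134, 265 and 305 CPM with vehicle, 125, 273 and 323 CPM at 10 µM, and 105, 257 and 319 CPM at 30 µM. Ccn4 (Wisp1, chr15:66763060-66795050, 7 exons), known as a Wnt-induced gene, had 415, 469.6 and 545 CPM with vehicle, 419.8, 495 and 519 CPM at 10 µM, and 387, 454 and 533 CPM at 30 µM. Both genes overlapped between all doses, and Ccn4 had the narrowest spread of the CCN genes. Ccn5 (Wisp2, chr2:163662753-163675066, 6 exons), the member that lacks the C-terminal cystine knot domain of the family, had 88.5, 235 and 316 CPM with vehicle, 76.0, 246 and 381 CPM at 10 µM, and 103, 251 and 364 CPM at 30 µM. It had the widest spread for its level, and its highest libraries were those of numbers 1 and 2 while its lowest were those of number 6.

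Thbs1 (thrombospondin 1, chr2:117941974-117957616, 22 exons), an activator of latent TGF-beta and a ligand of Cd36 and Cd47, had 6834, 9525 and 10619 CPM with vehicle, 6719, 9617 and 10519 CPM at 10 µM, and 7054, 10055 and 11492 CPM at 30 µM. The highest of these, 30 µM number 6, is among the libraries with many unaligned pairs, and the next highest at 30 µM had 10693 CPM. Thbs2 (chr17:14885761-14914528, 22 exons), a regulator of collagen fibre assembly, had 143, 191 and 271 CPM with vehicle, 147, 208 and 257 CPM at 10 µM, and 156, 203 and 266 CPM at 30 µM. Both thrombospondins overlapped across the doses.

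Postn (periostin, chr3:54268501-54298471, 23 exons), which carries fasciclin domains and helps to cross-link collagen, had 80.0, 168 and 208 CPM with vehicle, 74.2, 164 and 224 CPM at 10 µM, and 56.0, 166 and 209 CPM at 30 µM. Tnc (tenascin C, chr4:63878014-63965443, 27 exons), which modulates adhesion to fibronectin, had 952, 1364 and 1505 CPM with vehicle, 966, 1358 and 1555 CPM at 10 µM, and 1088, 1461 and 1599 CPM at 30 µM. Neither gene separated the doses. Sparc (osteonectin, chr11:55285317-55314067, 13 exons), a collagen-binding protein, had 2844, 3705 and 3852 CPM with vehicle, 3079, 3698 and 3806 CPM at 10 µM, and 3758, 3809 and 3909 CPM at 30 µM. The low ends belonged to vehicle number 1 and 10 µM number 6, which are among the libraries with many unaligned pairs, and without them the lowest values were 3177 and 3610.2 CPM.

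In all, 6 of the genes, Ccn1, Ccn2, Ccn4, Thbs1, Postn and Tnc, overlap an annotated non-coding gene on the other strand. The kit keeps strand, but the strand setting of the counting is not given in the sources used here. It is therefore not known how pairs from the stretches shared with such neighbours were assigned, or whether they were left out as ambiguous.

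In edgeR's quasi-likelihood test on all 18 libraries, 0 of 13865 genes passed an adjusted p (Benjamini-Hochberg) of 0.05 in any dose contrast (0% called), with 96 genes at an unadjusted p under 0.05 for 10 µM against vehicle, 595 for 30 µM against vehicle and 323 for 30 µM against 10 µM. DESeq2 also called 0, with 91, 614 and 377 genes under that unadjusted level. Of the 10 matricellular genes, 0 passed and 0 reached an unadjusted p of 0.05. For 30 µM against vehicle their log2 fold changes ran from −0.07 (Ccn4) to 0.17 (Ccn5) with a median of 0.06, against 0.01 over all genes tested. Sparc had the smallest p, with a log2 fold change of 0.12 (95% interval −0.04 to 0.28, edgeR adjusted p = 0.932). For 10 µM against vehicle the log2 fold changes ran from −0.04 (Ccn2) to 0.11 (Ccn5), and for 30 µM against 10 µM from −0.07 (Postn) to 0.08 (Sparc).

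The 95% intervals come from the fit on dose alone, in which differences between numbers count as spread. They were widest for Ccn5, at −0.77 to 1.10 on the log2 scale for 30 µM against vehicle, and for Postn, at −0.73 to 0.67. They were narrowest for Sparc, given before, and for Ccn4, at −0.25 to 0.12. Ccn1 reached from −0.39 to 0.51, Ccn2 from −0.57 to 0.54, Ccn3 from −0.66 to 0.61, Thbs1 from −0.23 to 0.35, Thbs2 from −0.34 to 0.47 and Tnc from −0.16 to 0.36. In the fit with number as a further term, all 10 intervals for 30 µM against vehicle lay between −0.23 and 0.30.

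Without the 3 libraries with the most unaligned pairs the edgeR test called 0 of 13888 genes in any dose contrast (0% called, with 656, 602 and 261 genes at an unadjusted p under 0.05 in the order given before). Ccn5 then had log2 fold changes of 0.39 at 10 µM (95% interval −0.59 to 1.36) and 0.41 at 30 µM (−0.56 to 1.38). Those libraries have no vehicle library of number 1, where Ccn5 was high, and no uracil library of number 6, where it was low. Numbers 2 to 5 were taken as a further set, chosen after seeing the data because it is balanced and free of those libraries, and edgeR called 0 of 13872 genes in it (148, 256 and 224 at an unadjusted p under 0.05). Ccn5 had 0.02 and 0.08 there, and the 10 genes lay between −0.04 and 0.08 for 30 µM against vehicle. Sparc had −0.03 at 10 µM and 0.01 at 30 µM in this set (95% intervals −0.11 to 0.05 and −0.07 to 0.09).

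**Figure D2:**
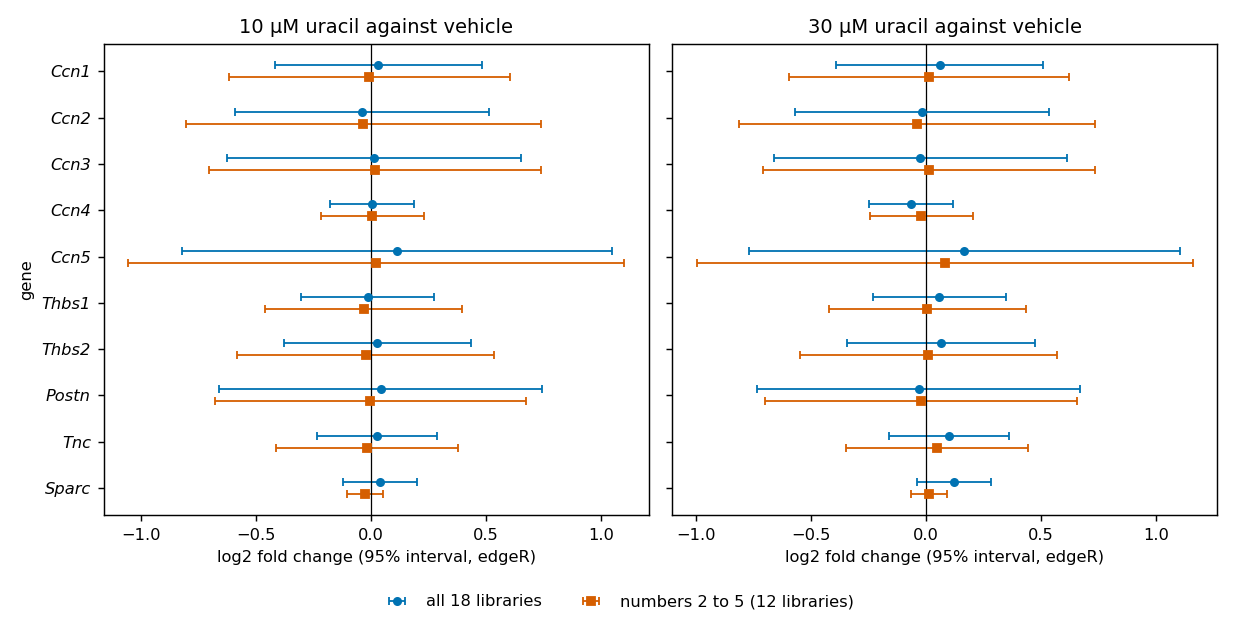
Log2 fold change of each gene (x axis) with its 95% interval from edgeR for 10 µM (left) and 30 µM uracil (right) against vehicle, from all 18 libraries (blue circles) and from the 12 libraries of numbers 2 to 5 (orange squares). Every interval crosses 0, and the points of the 12 libraries lie between −0.04 and 0.08.

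Within a number, the doses lay close together. Among the 15 libraries, 130 ratios can be formed between libraries of the same number, and they ran from 0.898 (Postn, 30 µM over 10 µM, number 1) to 1.14 (Tnc, 30 µM over vehicle, number 5). Their median distance from 1 was 3.59%, and 122 of them were within 10% of 1. For 30 µM over vehicle, Sparc ran from 0.991 to 1.03 in 4 numbers and Thbs1 from 0.967 to 1.03. Ccn5 ran from 0.939 to 1.13 and was higher in 3 of 4, and Ccn2 ran from 0.932 to 1.07 and was higher in 1 of 4. For 10 µM over vehicle, Thbs1 (0.959 to 0.991) and Sparc (0.974 to 0.991) were the only genes of the 10 to be lower in 4 of 4 numbers. Over all 6 numbers each was higher in 1, Thbs1 at 1.11 in number 6 and Sparc at 1.32 in number 1. The wider ratios all involve a library with many unaligned pairs, such as Postn at 0.700 and Sparc at 1.37 for 30 µM over vehicle.

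**Figure D3:**
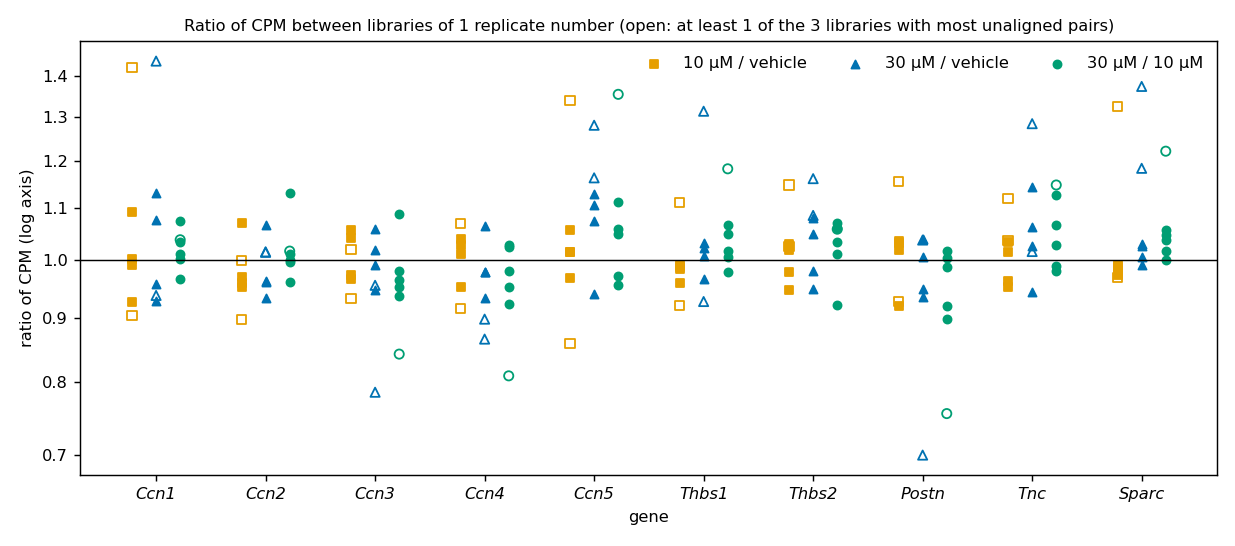
Ratio of CPM between libraries of the same replicate number (y axis, log scale) for each gene, as 10 µM over vehicle (squares), 30 µM over vehicle (triangles) and 30 µM over 10 µM (circles), with open symbols where a library with many unaligned pairs takes part. Filled symbols lie between 0.898 and 1.14, and the open symbols reach from 0.700 to 1.44.

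The second comparison was between the 6 numbers, tested with dose as a further term. Its p-values are set against the spread among libraries of the same number once dose is allowed for. The labels do not say whether those libraries are independent samples of a number, so small p-values here describe these libraries only. All of these genes but Sparc differed between numbers: in edgeR's F test on 18 libraries 9 of 10 passed an adjusted p of 0.05, where 12.6% of all genes did (1745 of 13865). With the 15 libraries 10 of 10 passed, where 20.8% did (2890 of 13888). The count over all genes rests on single libraries, since 3498 genes passed without vehicle number 1 and 3271 without vehicle number 6. The plain order of numbers was not the same in every gene, and 3 kinds of pattern are described next.

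Ccn5, Ccn3, Postn and Thbs2 were high in numbers 1 to 3, intermediate in number 4 and low in numbers 5 and 6. Ccn5 had 381 and 364 CPM in number 1 (10 µM, then 30 µM), 316, 320.3 and 339 CPM in number 2 (vehicle, 10 µM, 30 µM) and 296, 313 and 328 CPM in number 3. It had 185, 179 and 174 CPM in number 4, 106, 108 and 120.1 CPM in number 5, with 88.5 CPM in vehicle number 6. In these 15 libraries numbers 2 and 3 overlapped, and every other pair of neighbours in this order was separate. With vehicle number 1, at 284 CPM, number 1 also overlapped numbers 2 and 3. Among the 15, the highest mean, 372 ± 11.9 CPM (SD, n = 2), was 4.21 times the lowest value, and among all 13888 genes Ccn5 had the smallest p of the edgeR test in the 15 libraries (log2 range 2.01, adjusted p = 2.60e-14). With 18 libraries its log2 range was 1.95 (adjusted p = 1.77e-08).

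Postn was at 224 and 201 CPM in number 1. Number 2 had 208, 211 and 209 CPM of it, and number 3 had 175, 181 and 182 CPM. It had 161, 148 and 150.0 CPM in number 4, 99.7, 103 and 94.6 CPM in number 5, with 80.0 CPM in vehicle number 6. Only numbers 1 and 2 overlapped, and the highest mean was 2.65 times the lowest value (15 libraries, log2 range 1.41, edgeR adjusted p = 4.86e-12). Ccn3 had 266 to 323 CPM in numbers 1 to 3, 249 to 262 CPM in number 4, 145 to 153 CPM in number 5, with 134 CPM in vehicle number 6, a 2.34-fold span (edgeR adjusted p = 3.30e-12). Thbs2 had 235 to 271 CPM in numbers 1 to 3, 168 to 182 CPM in number 4, 151 to 163 CPM in number 5, with 143 CPM in vehicle number 6, a 1.85-fold span (log2 range 0.87, edgeR adjusted p = 2.04e-10). In both genes numbers 2 and 3 overlapped in the 15 libraries, and with all 18 numbers 5 and 6 also overlapped in Thbs2, where number 6 ran from 143 to 156 CPM.

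Ccn1 and Ccn2 were high in numbers 2 and 3 and low in numbers 1 and 5, and parted in number 6. Ccn1 had 698, 647 and 648 CPM in number 2, 523, 571 and 591 CPM in number 3, 444 CPM in vehicle number 6, 426, 422 and 408 CPM in number 4, 378 and 383 CPM in number 1. It was lowest in number 5, at 348, 349 and 375 CPM. No neighbouring numbers overlapped in this order in the 15 libraries (log2 range 0.89, edgeR adjusted p = 1.89e-10). With all 18, number 6 (401 to 444 CPM) overlapped number 4, and number 1 (266 to 383 CPM) overlapped number 5. Ccn2 had 661 CPM in vehicle number 6, which lay within the 647 to 679.8 CPM of number 2, then 588 to 613 CPM in number 3, 382 to 409 CPM in number 4, 332 and 375 CPM in number 1, the lowest being the 295 to 317 CPM of number 5 (log2 range 1.10, edgeR adjusted p = 3.43e-12). The other libraries of number 6, with many unaligned pairs, had 660.2 and 671 CPM of Ccn2. So vehicle number 6, where Ccn5, Ccn3, Postn and Thbs2 were at their lowest among the 15 libraries, was at the top for Ccn2, beside number 2.

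Thbs1, Tnc and Ccn4 were lowest in number 5, with smaller spans. Thbs1 had 10519 to 10693 CPM in number 2, 9876 to 10537 CPM in number 3, 9510.0 and 9573 CPM in number 1, 8751 CPM in vehicle number 6, 7879 to 8152 CPM in number 4 and 6719 to 7054 CPM in number 5 (15 libraries, log2 range 0.62, edgeR adjusted p = 4.27e-10). Tnc was highest in number 3, at 1505, 1555 and 1599 CPM, and lowest in number 5, at 952, 966 and 1088 CPM (log2 range 0.63, edgeR adjusted p = 4.97e-08). Ccn4 was also highest in number 3, at 519 to 545 CPM, and lowest in number 5, at 387 to 419.8 CPM, a 1.31-fold span (log2 range 0.38, edgeR adjusted p = 2.22e-05). With all 18 libraries number 6 was wide in these genes. It ran from 8751 to 11492 CPM for Thbs1, which spans numbers 1 to 3, and from 1183 to 1519 CPM for Tnc. For Ccn4 it ran from 406 to 501 CPM and overlapped number 5.

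Ccn4 and Sparc are the genes whose calls depend on the libraries. With all 18, Ccn4 had an adjusted p of 0.0246 in the edgeR test, and it no longer passed (adjusted p 0.0522 to 0.0941) without 10 µM number 2, 30 µM number 2, vehicle number 3, 30 µM number 3, or any of the 3 libraries of number 5. Sparc did not pass with 18 libraries (log2 range 0.21, edgeR adjusted p = 0.523) and passed with 15 (log2 range 0.27, adjusted p = 0.0199). In those 15 libraries Sparc had 3610.2 to 3909 CPM in numbers 1 to 5, where all neighbours in order overlapped, and 3177 CPM in vehicle number 6. Its call among the 15 thus goes with a single low library. Outside the 15, the other libraries of number 6 had 3079 CPM at 10 µM, lower still, and 3758 CPM at 30 µM.

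**Figure D4:**
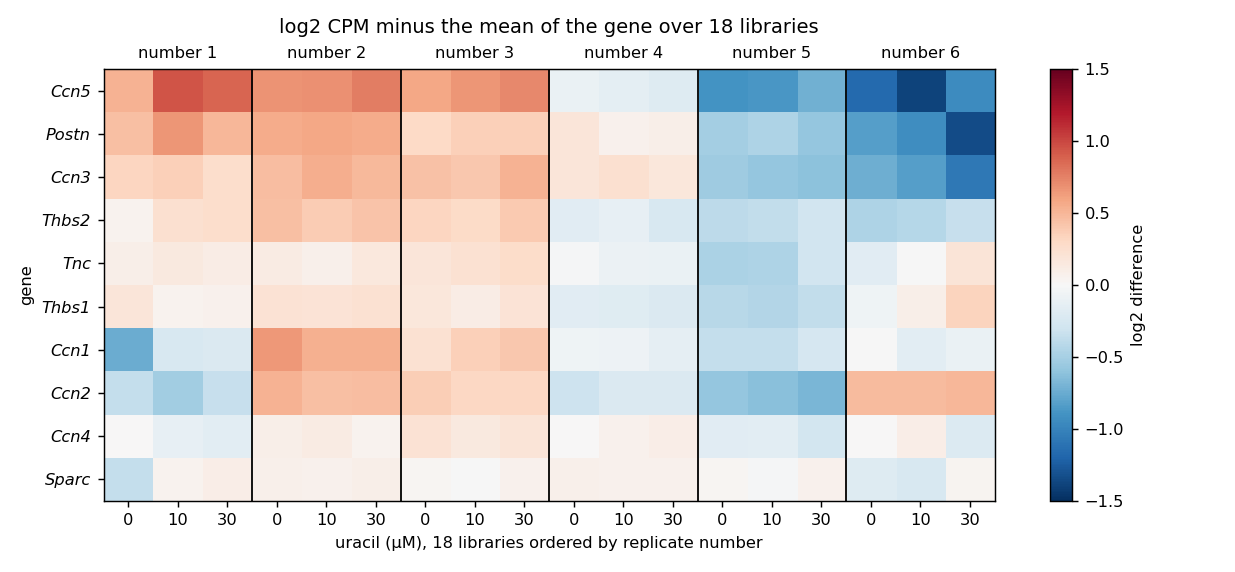
Log2 CPM minus the mean of the gene over 18 libraries (colour, red above and blue below), for the 10 genes in rows and the libraries in columns, grouped by replicate number and, within it, by uracil dose (0, 10 and 30 µM). Ccn5, Postn, Ccn3 and Thbs2 turn from red in numbers 1 to 3 to blue in numbers 5 and 6, Ccn2 is red in number 6, and Sparc is pale throughout apart from vehicle number 1 and the vehicle and 10 µM libraries of number 6.

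The share of variance in log2 CPM that goes with the number sets both comparisons on a common scale. In the 15 libraries, number accounted for 90.0% (Sparc) to 99.5% (Ccn5) of the variance of the 10 genes, with a median of 98.8%, against a median of 51.9% over 13865 genes (quartiles 35.0% and 70.7%). Dose, taken alone, accounted for 0.291% (Ccn1) to 19.4% (Sparc), with a median of 4.54%, against 10.6% over all genes. With all 18 libraries the number share of Sparc was 36.0%, that of Ccn4 78.4%, and the other 8 genes had 88.1% to 99.0%. These shares are descriptions, and in the 15 libraries number and dose are not balanced.

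**Figure D5:**
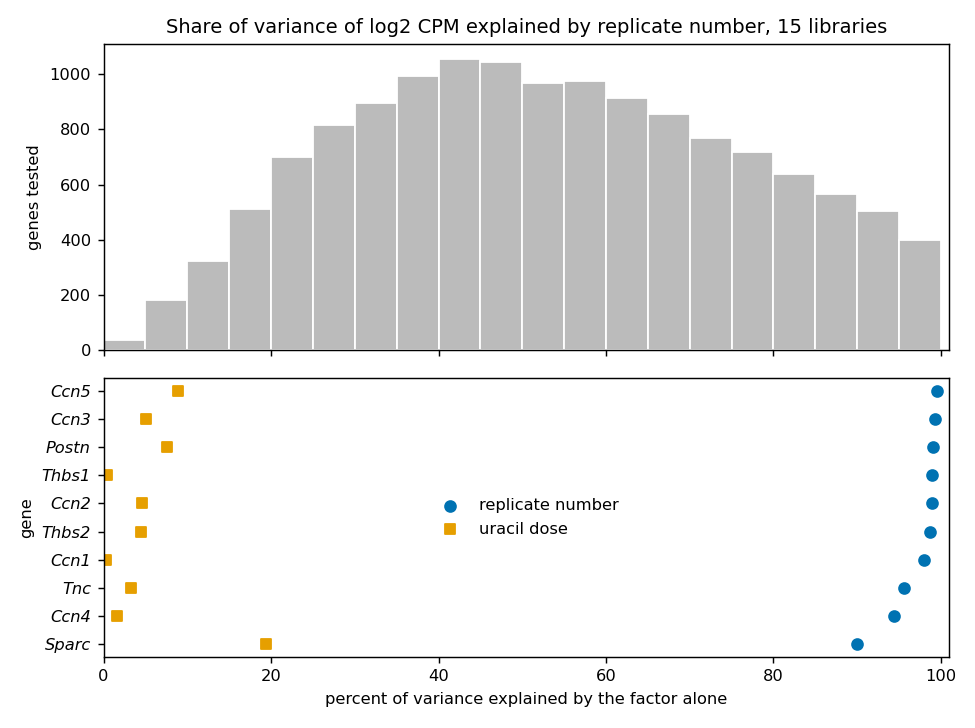
Top, number of genes tested (y axis) by the percent of the variance of log2 CPM explained by replicate number in 15 libraries (x axis); bottom, the same percent for each of the 10 genes (blue circles) and the percent explained by uracil dose alone (orange squares). The 10 genes lie between 90.0% and 99.5% for number and between 0.291% and 19.4% for dose.

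Correlations from library to library are given only as a description over the same 15 libraries, which share their numbers. Within a pattern, Pearson's r of log2 CPM was 0.97 for Ccn5 with Postn, 0.96 for Ccn5 with Thbs2, 0.96 for Ccn3 with Postn, 0.93 for Thbs1 with Tnc and 0.90 for Ccn1 with Ccn2. Ccn4 had 0.68 with both Thbs1 and Tnc, but higher values with genes of another pattern, 0.81 with Ccn2 and 0.76 with Ccn1. Values between patterns were in part as high, at 0.91 for Thbs1 with Thbs2, 0.90 for Ccn5 with Tnc, 0.88 for Ccn3 with Tnc and 0.85 for Ccn5 with Thbs1, while Ccn2 had 0.43 with Ccn5 and 0.38 with Postn. Sparc ran from −0.21 with Ccn2 to 0.64 with Postn.

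For each gene, the 2 genes with the highest r were read from the 10659 genes with a mean of at least 5 CPM. Ccn1 was followed by Ptgs2, the inducible cyclooxygenase, and Arc (both r = 0.98), and Ccn2 by the growth factor Hbegf (0.98) and the MAP kinase phosphatase Dusp5 (0.97), all of which are known as genes induced by serum or growth factors. Ccn5 was followed by the secreted proteins Ccdc80 (0.996) and Coch (0.99), and Postn by the protocadherin Pcdh7 (0.99) and the protease inhibitor Serpine2 (0.98), which was also the closest to Ccn3 (0.97, with Rnf144a at 0.97). Thbs2 was followed by the Notch ligand Jag1 (0.99) and the receptor Pdgfrb (0.98), Thbs1 by Lurap1l and the collagen gene Col11a1 (both 0.98), and Tnc by Rap1gap2 and the collagen gene Col5a3 (both 0.97). Ccn4 had lower values, with Ankrd1 (0.91), a known YAP target, and the signalling inhibitor Spry1 (0.90), and Sparc had the glycolytic Pfkp and Lgals3bp (both 0.94). With all 18 libraries 7 of these 20 choices were the same.

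Genes around the 10 were described from lists. In the 3 dose contrasts, 0 genes of any list passed in edgeR's test, with 0% called over all genes. Of 22 receptors tested (24 listed), the smallest p for 30 µM against vehicle was that of Tlr4, a receptor proposed for tenascin C, with a log2 fold change of −0.26 (edgeR adjusted p = 0.931). Median log2 fold changes for 30 µM against vehicle were 0.03 in 18 matricellular relatives (23 listed), 0.01 in the receptors, −0.02 in 22 upstream regulators, 0.03 in 20 immediate-early genes and 0.03 in 11 processing proteases, against 0.01 over all genes. Among the others, the gene with the smallest p in each list had a log2 fold change of 0.18 (Fbln2, fibulin 2), 0.10 (the TGF-beta receptor Tgfbr2), 0.20 (Junb) and 0.15 (Bmp1, a procollagen protease), with edgeR adjusted p of 0.931 or more. For 10 µM against vehicle the lowest of these medians was −0.06, in the immediate-early genes.

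Between numbers, with 12.6% of all genes called in 18 libraries and 20.8% in 15, the lists differed among themselves. Of the matricellular relatives 10 of 18 passed in edgeR's F test on 18 libraries and 13 of 18 on 15, with a median log2 range of 0.67 on 18 against 0.37 over all genes. Tnn (tenascin W), Thbs4 and Sparcl1 had the largest ranges at low levels. Over the 15 libraries, as for all means that follow, Thbs4 averaged 6.34 CPM in number 2 against 1.52 in number 5. Sparcl1 averaged 2.52 CPM in number 2 against 0.696 in number 5, and Tnn ran from 0 to 1.85 CPM. Osteopontin (Spp1), far more abundant, averaged 1005 CPM in number 2 against 446 in number 5 (log2 range 1.17, edgeR adjusted p = 2.33e-12).

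Of the immediate-early genes 14 of 20 passed on 18 libraries and 19 of 20 on 15, with a median log2 range of 1.05 on 18. Egr2 averaged 29.9 CPM in number 2 against 6.55 in number 5, Nr4a1 32.5 CPM in number 2 against 9.28 in number 1, and Ptgs2 379.6 CPM in number 2 against 121 in number 5. Number 2 was thus high in these genes and in Ccn1, but Ptgs2 had already been named for its high correlation with Ccn1 over the same libraries. In vehicle number 6 Ccn1 was intermediate, and Ptgs2 also lay between its extremes, at 228 CPM. Vehicle number 6 lay above the mean of number 2 in Atf3, Klf4 and Myc, and below it in the other genes of the list, though only slightly in Nr4a1. Of the receptors 8 of 22 passed on 18 libraries and 14 on 15, with the integrin chains Itga2 and Itga8 and the scavenger receptor Lrp1 at the largest ranges on 18. Itga8, which pairs with Itgb1 to bind tenascin C and other ligands, averaged 12.4 CPM in number 1 against 5.82 in number 5.

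Of the upstream regulators, which include Yap1, Wwtr1, the Tead genes, Srf and the TGF-beta pathway, 1 of 22 passed on 18 libraries and 7 on 15. The gene called in both was Tgfb2, with 40.6, 41.0 and 42.8 CPM in numbers 1 to 3 and 29.6, 21.9 and 23.1 CPM in numbers 4 to 6 (means over the 15 libraries, edgeR adjusted p = 1.57e-08). Of the processing proteases 6 of 11 passed on 18 libraries and 7 of 10 on 15. Ctsk (cathepsin K) averaged 12.7 CPM in number 1 against 2.48 in number 5 and was called in both, as were Mmp3 and Mmp9, which did not exceed 4.04 and 3.09 CPM.

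Markers of other cell types were read beside the pattern of numbers. The summed level of 5 mesothelial genes was 130 to 163 CPM in numbers 1 to 3 and 279 to 389.5 CPM in numbers 4 to 6 of the 15 libraries, and 5 of 5 passed the edgeR test between numbers, among them Msln and Upk3b. The sum of 4 chondrocyte genes, mostly Col2a1, was 26.1 to 36.9 CPM in numbers 1 to 3 and 9.19 to 18.5 CPM in numbers 4 to 6, with 2 of 3 tested genes called on 18 libraries and 3 on 15, and with Matn1 at 0 or 1 count in every library. Of 10 fibroblast genes 6 passed on 18 libraries and 8 on 15. Their sum, mostly Col1a1, Col1a2, Vim and Col3a1, was 25671 to 29933 CPM in the 15 libraries with no separation of the numbers. It reached 57307 CPM in 30 µM number 6. Single genes of the list did separate them: Pdgfrb averaged 232, 238 and 233 CPM in numbers 1 to 3 and 174, 147 and 130 CPM in numbers 4 to 6. Lum fell from 9.84 CPM in number 1 to 0.252 CPM in number 6, while Dcn was highest in number 5, at 209 CPM. Summed markers reached 22.8 CPM for the epithelial, 11.8 CPM for the endothelial and 4.68 CPM for the blood and macrophage list, and 0 of the 7 genes tested from them passed between numbers. The smooth muscle and contractile list, led by Acta2, summed to 3870 to 5397 CPM with 2 of 5 genes called on 18 libraries and 4 on 15. In the 15 libraries the chondrocyte sum was thus lower in numbers 4 to 6, as were Ccn5, Ccn3, Postn and Thbs2, while the mesothelial sum was higher. Krt19 of the mesothelial list did not keep this split, since its level in number 6 lay among the means of numbers 1 to 3. The split was not particular to these lists, as means of Pdgfrb, Lum and the contractile gene Myh11 were also lower in numbers 4 to 6. The part of any of these markers in the levels of Ccn5, Ccn3, Postn and Thbs2 was not tested.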

How the data were processed

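Total RNA from MEFs was sequenced after ribosomal RNA depletion with a stranded kit, in 18 libraries of 3 uracil doses. The authors deposited raw read counts per Ensembl gene, not normalised. The submitters' processing notes name FastQC, HISAT2, SAMtools 1.2, HTSeq and the build GRCh38, although the gene identifiers are mouse; the mouse build, annotation and strand setting are not given in the sources used here. Rows outside genes were left out of library sizes and held 6.85% to 15.5% of pairs for no feature, 0.503% to 1.64% for ambiguous, 4.79% to 13.1% for low quality, 1.72% to 54.2% for unaligned and 5.59% to 20.2% for multiple alignment, relative to all pairs. GENCODE M39 (GRCm39) names matched 51731 of 55487 identifiers, and positions and exon lengths came from it.

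Counts were tested with edgeR 4.0.16 in R 4.3.3 (limma 3.58.1): filterByExpr on dose, TMM scaling, robust dispersion, and two-sided quasi-likelihood tests with Benjamini-Hochberg adjustment over all genes tested, with a threshold of 0.05. The dose contrasts used dose alone, and the test of replicate number was an F test over 6 numbers with dose as a further term. CPM is per TMM-scaled library, and log2 CPM used a prior count of 2. Alternatives were DESeq2 1.42.0, RLE scaling, other count filters, the replicate block, only the groups compared, the 15 libraries, numbers 2 to 5, and each library left out. On simulated counts with 200 changed genes, the test of 30 µM against vehicle recovered 58.5% at 1.5-fold (13804 genes tested) and 86.5% at 2-fold (13772 genes).

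The 10 genes and the lists of other genes and markers were chosen with earlier results of these data known. All 10 genes are described. From other genes, the text names the 2 with the highest correlation to each of the 10. From each list it names up to 3 called genes with the largest difference between numbers and, for dose, the gene with the smallest p. Spp1 had the smallest p of its list between numbers in the 15 libraries and, like the markers named, was chosen after its values were seen.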

Additional observations from a re-analysis of the deposited data

Results flagged for a closer look

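Among the 10 genes at 3 doses, 30 groups of 6 libraries were examined for a library far from the rest, and chance alone would mark about 1.5 of them. In 1 group a library stood apart, which was Sparc at 10 µM uracil. The library of number 6 had 3079 CPM while the other 5 lay between 3610.2 and 3806 CPM, and its gap to the nearest of them was 0.731 of the whole range, above Dixon's 95% critical value for 6 libraries. This library also has a raised share of unaligned pairs, 5.24%, and the part of these pairs in the low level was not tested. Vehicle number 6, with 2.49% unaligned pairs, was also low, at 3177 CPM of Sparc.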

How the results depend on the processing

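No dose contrast called a gene under any alternative, and 0 of the 10 genes passed in 810 alternative fits of their dose contrasts, where the smallest adjusted p was 0.656. Signs changed in 126 of those fits, all for differences that did not pass, and the cause was not tested. For 10 µM against vehicle, the log2 fold change became −0.00014 for Ccn4 with DESeq2 and 0.0045 for Thbs1 with no count filter. Without the 3 libraries it became −0.048 for Ccn1 and −0.021 for Ccn4 at 10 µM, and −0.029 for Ccn1, 0.16 for Ccn3 and 0.20 for Postn at 30 µM. Over numbers 2 to 5 it became −0.0078 for Ccn1, −0.024 for Thbs2, −0.0032 for Postn, −0.017 for Tnc and −0.027 for Sparc at 10 µM, 0.014 for Ccn3 at 30 µM, and −0.0058 for Ccn2 between the doses.

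Libraries of the same number deviated together in 16 of 18 pairs (r over 0.1, lowest −0.10), and 14 of 18 libraries correlated best with their own number, against 8 of 15 in the reduced set. The pairs that did not both held vehicle number 1 (r = −0.10 and −0.034), the library with 54.2% unaligned pairs. In the 15 libraries 12 of 13 pairs had r over 0.1. The labels do not say what is shared, so the main dose fits left number out, and fits with the replicate block are given beside them. With the replicate block, 0 genes were called in each contrast (161, 937 and 588 at an unadjusted p under 0.05), and Ccn3 had −0.0037 at 10 µM. The 95% interval of Ccn5 for 30 µM against vehicle narrowed to −0.0068 to 0.30 with it, and to −0.024 to 0.15 in the 15 libraries. With the replicate block in the 15 libraries, 0 genes were called, and at 10 µM Ccn1 had −0.00046, Thbs2 −0.012, Tnc −0.0068 and Sparc −0.028.

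With each library left out in turn, log2 fold changes for 10 µM against vehicle ran from −0.090 to 0.20 for Ccn1, −0.14 to 0.067 for Ccn2, −0.11 to 0.15 for Ccn3, −0.029 to 0.043 for Ccn4, −0.093 to 0.30 for Ccn5, −0.079 to 0.062 for Thbs1, −0.053 to 0.14 for Thbs2, −0.090 to 0.19 for Postn, −0.042 to 0.11 for Tnc and −0.019 to 0.085 for Sparc. For 30 µM against vehicle they ran from −0.058 to 0.23 for Ccn1, −0.12 to 0.093 for Ccn2, −0.15 to 0.12 for Ccn3, −0.0043 to 0.13 for Thbs1, −0.014 to 0.17 for Thbs2 and −0.16 to 0.14 for Postn. For 30 µM against 10 µM they ran from −0.083 to 0.15 for Ccn1, −0.081 to 0.14 for Ccn2, −0.17 to 0.11 for Ccn3, −0.13 to 0.26 for Ccn5, −0.042 to 0.12 for Thbs2, −0.22 to 0.090 for Postn and −0.0019 to 0.13 for Tnc.

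Between numbers, 1272 to 3498 genes were called with a library left out (the lowest without vehicle number 5), 2989 with DESeq2 and 2890 in the 15 libraries, against 1745 with all. Of the 10 genes 8 or 9 were called with a library left out. Ccn4 also did not pass with no count filter (adjusted p = 0.0664).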
